A study of Mus musculus with 11 samples.

Results

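Ccl7-positive hepatic stellate cells (HSC) 72 h after carbon tetrachloride (CCl4) were taken as the cells of 1 library of 10X Chromium with at least 2 unique molecular identifiers (UMIs) of Ccl7. These were 1390 of the 7310 cells of that library kept after filtering, and 1390 of 30999 cells in all 5 10X libraries of the series. They were compared with the 4848 cells of the same library without a Ccl7 UMI (Ccl7-zero cells), and the 1072 cells with 1 UMI were set aside. Because Ccl7 chose the cells, its own level is a description and not a finding.

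The mice were Pdgfrb-BAC-eGFP reporters on a C57BL/6 background, males of 10 to 16 weeks, in which cells expressing PDGFRβ, the receptor for platelet-derived growth factor B, carry GFP. The acutely injured mice received 1 intraperitoneal injection of CCl4, a toxin that kills hepatocytes around the central vein, in olive oil, and livers were taken at 72 h. Comparison libraries came from uninjured mice and from mice injected with CCl4 2 times a week for 6 weeks and killed 48 h after the last dose. All 3 were made with digestion protocol 2, an HSC isolation with retrograde perfusion of EGTA, pronase and collagenase D and a density gradient, followed by a sort for GFP-positive cells without CD45 or CD102. The labels give 3 mice per library, pooled, so each condition is 1 sample and mice cannot be told apart.

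CCL7 (MCP-3) and CCL2 (MCP-1) are secreted CC chemokines that draw monocytes out of the blood, mainly through the receptor CCR2. Their genes lie side by side in a chemokine gene cluster, and in many cell types both are switched on by NF-κB, a transcription factor held in the cytoplasm by IκB proteins until inflammatory signals such as TNF or IL-1 destroy them. HSCs are the vitamin A-storing pericytes of the liver sinusoid, which turn into matrix-producing myofibroblasts after injury and are a known source of chemokines. On GRCm38, the build of the deposited counts, Ccl7 lies on chromosome 11 (chr11:82045712-82047525, plus strand), with Ccl2 (chr11:82035571-82037453) just before it on the same strand and Ccl11, Ccl12 and Ccl8 after it.

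Promoter stretches are shown for the CXC chemokines Cxcl1, Cxcl2 and Cxcl10, because, with Ccl2, they had the largest ratios in Ccl7-positive cells among genes of at least 50 CPM in the higher cell set and share NF-κB-like letters upstream of their starts. The stretches run 5′ to 3′ from 140 to 31 bases before the RefSeq start (GRCm38.p6). Capitals mark a κB-like motif (GGGA, any base, TT, any base, CC) and in Cxcl10 also TGANTCA, an AP-1-like motif. Both were searched on both strands, and the marked matches did not overlap.
Cxcl1, chr5:90891105-90891214, plus strand: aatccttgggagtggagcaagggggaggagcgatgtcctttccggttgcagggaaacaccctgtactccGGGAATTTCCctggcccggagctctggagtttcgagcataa
Cxcl2, chr5:90903759-90903868, plus strand: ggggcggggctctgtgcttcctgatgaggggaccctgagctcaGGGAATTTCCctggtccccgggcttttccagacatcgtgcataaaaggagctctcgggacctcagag
Cxcl10, chr5:92348920-92349029, minus strand: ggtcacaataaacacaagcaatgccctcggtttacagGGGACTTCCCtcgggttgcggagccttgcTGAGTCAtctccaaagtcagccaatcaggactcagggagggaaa

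Of 27025 genes with an entry in this RefSeq promoter table, 1.13% held the κB-like letters and 7.82% the AP-1-like letters in the 250 bases before a start. Of the 18 genes that were at least 1.5-fold higher in the Ccl7-positive cells, 13 had an entry. The κB-like letters stood before 4 of these, Cxcl1, Cxcl2, Cxcl10 and Nfkbia, and the AP-1-like letters before Cxcl10 and Mt2. Ccl2, Hist1h2ap, Thbs1, Bhlhe40 and Vcam1 were the others. Of the 13 with an entry, Cxcl2, Maff, Egr2 and Icam1 had reached 50 CPM only through the positive cells. These counts are a description and were not tested. A match is a run of letters, not a measured binding site.

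Most cells of the 72 h library had little or no Ccl7, and a minority held nearly all of it. The library had 4848 cells at 0 UMIs, 1072 at 1, 324 at 2, 209 at 3, 153 at 4 and 332 at 10 or more, with 215 UMIs in the highest cell. The 1390 positive cells, 19.0% of the library (exact Clopper-Pearson interval 18.1 to 19.9%), held 91.2% of its 12237 Ccl7 UMIs. Their Ccl7 level was 574 counts per 1e+06 UMIs of the cell set (CPM). Intervals of shares, levels and ratios in this text are at 95% and cover counting error only.

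The positive cells carried the markers of HSCs. At least 3 of 7 HSC markers (Vipr1, Colec11, Pth1r, Ecm1, Hgf, Reln and Lrat) were seen in 99.8% of positive and 99.8% of Ccl7-zero cells. Nearly every cell of the library met this rule, with 1387 of 1390 positive, 4836 of 4848 Ccl7-zero and 1070 of 1072 set-aside cells. Most of the 191 cells of a cluster led by fibroblast genes, 29 of them positive, therefore met it too. The rule cannot tell HSCs from fibroblasts in this library. Lrat, which makes the retinyl esters that HSCs store, stood at 839 CPM in positive and 986 CPM in Ccl7-zero cells, and Colec11, a collectin of quiescent HSCs, at 1716 and 2281 CPM. Positive cells were the deeper ones, with a median of 13268 UMIs against 10683, as a rule of 2 or more UMIs favours deep cells. Their median mitochondrial share was 2.71% against 2.76%.

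Hepatocyte RNA was low in the positive cells. Alb, serum albumin, gave 54 UMIs in 1390 positive cells, 2.77 CPM (2.08 to 3.62), against 4.70 CPM (4.14 to 5.31) in Ccl7-zero cells. Apoa1, an apolipoprotein, stood at 2.83 CPM (2.13 to 3.68) against 3.52 CPM, and Rbp4, the retinol carrier, at 1.13 CPM (0.708 to 1.71) against 1.21 CPM. The 3 genes were thus no higher in the positive cells of this library. Over the 12 hepatocyte markers the summed level was 63.8 against 71.5 CPM, most of it Trf at 47.6 CPM in positive cells, and none was at 0. No positive cell held UMIs of 6 or more of the 12 (exact interval up to 0.265%).

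Markers of blood cells were also near 0, as the sort for CD45-negative cells would leave them. Over 13 leucocyte and macrophage markers the sum was 12.9 CPM in positive and 16.2 CPM in Ccl7-zero cells, 10.3 CPM of it Lyz2, and 5 of the 13 had no UMI in positive cells. The 5 at 0 were Ptprc, which encodes CD45, Cd3e of T cells, Adgre1 of macrophages, the chemokine receptor Ccr2 and S100a8 of neutrophils. Fibroblast markers were present in a small set: cells with UMIs of at least 3 of 8 fibroblast markers made up 19.3% of positive (268 cells) and 12.2% of Ccl7-zero cells, at median depths of 17199 and 14346 UMIs. Over all cells of each set the 8 genes summed to 327 against 310 CPM, with Gpx3 the most abundant at 163 CPM in positive cells and none at 0. Gpx3 had a ratio of 0.91 (0.88 to 0.95), so the sum does not stand for the list. With no limit on the level, 5 of the 8 had an interval above 1 and 1 below. The median ratio was 1.18. Of all genes with any UMI, 8.49% had an interval above 1 and 9.91% below. Called doublets were 8.85% of positive and 4.91% of Ccl7-zero cells. The Ccl2 ratio given next, 4.95, was 5.0002 without called doublets, 5.08 without the fibroblast-marker cells and 5.60 with Ccl7-zero cells weighted to the depth of the positive cells.

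Among 2860 genes with at least 50 CPM in the higher cell set, the 5 with the largest ratios were at least 2-fold higher in positive cells (0.175% of those compared), Ccl2, Cxcl2, Cxcl1, Cxcl10 and Hist1h2ap, and 0 were at least 2-fold lower (0%). A gene could reach the limit through the set in which it was high. The mean of both sets was under 50 CPM for 87 of the 2860, Cxcl2 among them, and with the limit set on that mean, a choice added after the values were seen, the other 4 genes were at least 2-fold higher. These are ratios of summed UMIs within 1 library, so no test was made. The median ratio of all 2860 genes was 0.996, with a 5th percentile of 0.875 and a 95th of 1.12. Intervals lay above 1 in 20.9% of these genes and below 1 in 25.4%, which is the background for the counts of intervals given for gene lists.

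Ccl2 stood at 787 CPM in positive and 159 CPM in Ccl7-zero cells, a ratio of 4.95 (4.82 to 5.09). It was seen in 78.0% of positive and 43.0% of Ccl7-zero cells, and in 64.8% and 31.5% after each cell was thinned to 5000 UMIs, which left out 51 positive and 562 Ccl7-zero cells. The overlap was partial: 204 Ccl7-zero cells held 10 or more Ccl2 UMIs and 417 positive cells did. Of the 733 cells of the library with at least 10 Ccl2 UMIs, 56.9% were Ccl7-positive.

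The CXC chemokines followed. Cxcl2, a neutrophil attractant that acts through CXCR2, stood at 52.9 against 11.7 CPM, a ratio of 4.54 (4.10 to 5.02), but only 15.8% of positive cells had a UMI of it. Cxcl1, which acts on the same receptor, stood at 520 against 199 CPM (2.62, 2.55 to 2.69). Cxcl10, the CXCR3 ligand that attracts T cells, stood at 329 against 128 CPM (2.57, 2.48 to 2.66). Other abundant chemokines did not share the pattern. Cxcl12, the CXCR4 ligand and the most abundant chemokine of these cells, stood at 2590 against 2906 CPM (0.89, 0.88 to 0.90), Cxcl14 at 146 against 160 CPM (0.91), Cxcl16 at 136 against 129 CPM (1.05) and Ccl19, the CCR7 ligand, at 72.8 against 67.5 CPM (1.08).

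**Figure D1:**
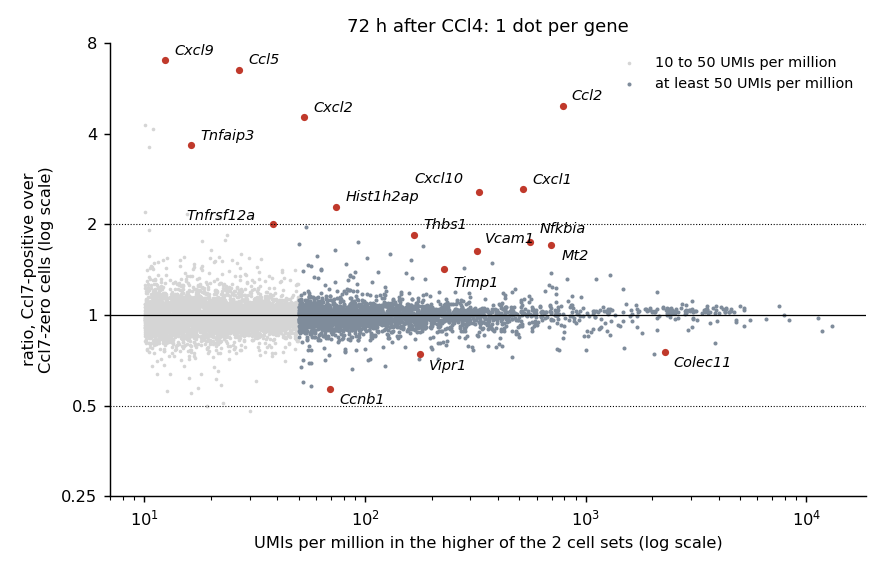
Each dot is a gene of the 72 h library, with its level in CPM in the higher cell set on the x axis and the ratio of Ccl7-positive over Ccl7-zero cells on the y axis, both on log scales. Dotted lines mark 2-fold. Ccl2, Cxcl2, Cxcl1, Cxcl10 and Hist1h2ap lie above 2 among genes of at least 50 CPM, while most genes lie close to 1.

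The CC and CXC lists held 21 and 14 genes. Apart from Ccl7, 2 CC and 6 CXC members reached 50 CPM, and 1 and 3 of these were at least 2-fold higher (0.175% of all genes compared). Cxcl2, 1 of the 3, reached the limit only through the positive cells (52.9 against 11.7 CPM). Among rarer members, named after their values were seen, Ccl12, a further CCR2 ligand, gave 56 UMIs in positive and 27 in Ccl7-zero cells (5.72, 3.55 to 9.41) and Ccl11, eotaxin, 102 and 111 UMIs (2.53, 1.92 to 3.34). Some rare chemokines came from very few cells. The 10 highest positive cells held 80.4% of the Ccl11 UMIs, and without the top 1% of cells in each set its ratio was 1.08. Of the 523 Ccl5 UMIs in positive cells, 387 came from 1 cell, and the 10 highest cells held 93.7% of them. For Cxcl9 the 10 highest cells held 88.0% of 242 UMIs, whereas for Ccl2 they held 11.2% of 15310 and for Cxcl1 7.89% of 10117.

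No receptor for these chemokines was read at a level that could be compared. Of 14 chemokine receptors, 0 reached 50 CPM and 7 had no UMI in positive cells. The most abundant, by its values, was the scavenging receptor Ackr4 at 12.5 against 12.9 CPM.

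Most listed targets of NF-κB were higher in positive cells. Over all 24, with no limit on the level, 22 had an interval above 1 and 0 below, against 8.49% and 9.91% of the 16282 genes with any UMI. At 50 CPM 10 were compared, 2 of them, Icam1 and Relb, with a mean of both sets under it, and the other 8 had intervals above 1 (20.9% of all genes compared) and a median ratio of 1.38, against 0.996 for all genes compared. At 1.5-fold, a limit added after the values were seen, 0.629% of all genes compared were higher and 0.14% lower. Nfkbia, which encodes the inhibitor IκBα and is itself an NF-κB target, stood at 561 against 321 CPM (1.74, 1.70 to 1.79). Vcam1 and Icam1, the adhesion molecules that hold leucocytes, stood at 322 against 197 CPM (1.64, 1.59 to 1.69) and 60.3 against 38.5 CPM (1.57, 1.46 to 1.69). Relb, an NF-κB subunit, had a ratio of 1.40, Nfkbiz, an atypical IκB, 1.37, Ier3 1.39, Irf1, an interferon-responsive transcription factor, 1.34, Sod2 1.15 and Rela 1.07. Tnfaip3, the feedback inhibitor A20, was rarer at 16.2 against 4.44 CPM (ratio 3.66) and was named after its value was seen.

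The markers given for these cells besides the chemokines were higher, but less so. Tnfrsf12a, the receptor for the cytokine TWEAK, stood at 38.2 against 19.1 CPM, a ratio of 2.00 (1.82 to 2.20), below the 50 CPM limit. Timp1, an inhibitor of matrix metalloproteinases, stood at 228 against 161 CPM, a ratio of 1.42 (1.37 to 1.47), so most Timp1 RNA of the library lay outside the positive cells. Of the 4627 cells with a Timp1 UMI, 22.6% were Ccl7-positive.

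Further genes that were at least 1.5-fold higher had varied roles. Maff, a small Maf transcription factor, stood at 54.1 against 27.7 CPM (1.95, 1.80 to 2.12), Thbs1, thrombospondin-1, at 167 against 90.2 CPM (1.85, 1.77 to 1.93) and Gadd45b, a stress-induced regulator of MAP kinases, at 92.4 against 52.8 CPM (1.75, 1.65 to 1.86). Egr2 and Nr4a1, immediate early transcription factors, had ratios of 1.72 and 1.70. Mt2, a metallothionein, stood at 696 against 408 CPM (1.70, 1.67 to 1.74) and Mt1 at 1289 against 949 CPM (1.36). Serpina3g and Pim1, both known to respond to cytokines that act through STAT3 or interferon, had ratios of 1.60 and 1.53, Hk2, hexokinase 2, 1.54 and Bhlhe40 1.64.

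Immediate early genes, which also rise when cells are digested from tissue, were mostly higher. Of 22 listed, 21 had an interval above 1 with no limit on the level (8.49% of all genes with any UMI) and 0 below. At 50 CPM 18 were compared, Maff and Egr2 with a mean of both sets under it, and the other 16 had intervals above 1 (20.9% of all genes) and a median ratio of 1.21. Fos stood at 2094 against 1764 CPM (1.19) and Jund at 1520 against 1397 CPM (1.09). All 8 heat shock genes compared had a ratio above 1, with a median of 1.04 and intervals above 1 in 5 (20.9% of all genes). The part of digestion in the result was not tested.

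Most cytokines were too rare to compare at 50 CPM. Of 21 listed, 4 reached it, and none of these was 1.5-fold apart. With no limit 16 had any UMI, and 7 had an interval above 1 and 2 below (8.49% and 9.91% of all genes with any UMI). Csf1, which sustains macrophages, stood at 143 against 124 CPM (1.15, 1.099 to 1.20), Il34, a second ligand of the same receptor, at 79.6 against 94.0 CPM (0.85) and Tgfb1 at 129 against 133 CPM (0.97). Il6, named after its value was seen, gave 58 UMIs in 22 positive cells and 37 in Ccl7-zero cells (4.32, 2.81 to 6.71), with 79.3% of the 58 in 10 cells. Of 7 cytokine receptors compared, Tnfrsf1a, the main TNF receptor, had a ratio of 0.97, Il1r1 1.05 and Lifr 0.77. Interferon-stimulated genes had a median ratio of 0.98 over 10 compared, with Gbp2 at 1.26 and Ifit3 at 0.79.

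Matrix genes differed by small ratios. Of 20 listed, 19 were compared, 12 had intervals above 1 (20.9% of all genes) and 3 below, their median ratio was 1.06 and Thbs1 alone was 1.5-fold higher. Sparc, a collagen-binding glycoprotein and the most abundant, stood at 8056 against 8373 CPM (0.96) and Cthrc1 at 85.7 against 70.8 CPM (1.21). Acta2, smooth muscle actin and the usual myofibroblast marker, stood at 948 against 830 CPM (1.14, 1.12 to 1.16), and the 21 cytoskeletal genes compared had a median ratio of 1.02. Genes of HSC identity were lower: 15 of 17 compared had intervals below 1 (25.4% of all genes), 1 had an interval above 1, and the median ratio was 0.88. Vipr1, the receptor for vasoactive intestinal peptide, stood at 132 against 177 CPM (0.74, 0.71 to 0.78), Colec11 had a ratio of 0.75, Lrat 0.85 and Dcn, decorin, 0.88. Positive cells were deeper, and with Ccl7-zero cells weighted to their depth Vipr1 stood at 0.86 and Colec11 at 0.88.

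Levels of Ccl2, Cxcl1, Cxcl10 and Nfkbia rose with the number of Ccl7 UMIs in a cell. Depth rose as well, from a median of 10683 UMIs in cells without Ccl7 to 14630 in cells with 10 or more Ccl7 UMIs. Just outside the threshold, cells with 1 UMI had 284 CPM of Ccl2, 251 of Cxcl1 and 185 of Cxcl10, and just inside it, cells with 2 UMIs had 368, 357 and 192 CPM. Timp1 stood at 193 and 192 CPM on the 2 sides and Nfkbia at 360 and 467 CPM. In the 332 cells with 10 or more Ccl7 UMIs, Ccl2 reached 1589 CPM, Cxcl1 814, Cxcl10 611 and Nfkbia 766, and Timp1 254. Cxcl2 stood at 124 CPM there, against 38.5 CPM at 5 to 9 UMIs. Colec11 moved the other way, from 2281 CPM at 0 to 1437 CPM at 10 or more Ccl7 UMIs, and Vipr1 from 177 to 113 CPM. These groups were not matched for depth.

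**Figure D2:**
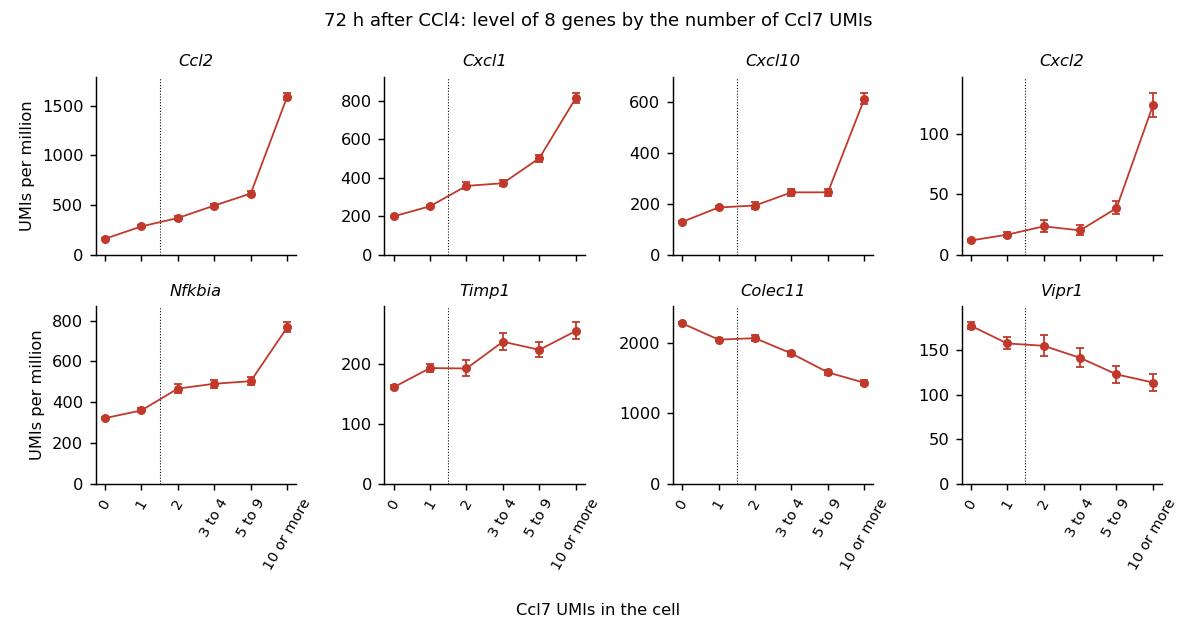
Level of 8 genes (CPM, y axes from 0) in cells of the 72 h library grouped by their number of Ccl7 UMIs (x axis), with exact Poisson intervals; the dotted line marks the threshold of 2. Ccl2 rises from 159 in cells without Ccl7 to 1589 in cells with 10 or more, while Colec11 falls from 2281 to 1437. Median depth rises from 10683 to 14630 UMIs between the same groups.

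Positive cells were spread over clusters that were made without the listed genes. The genes left out included the chemokines, the NF-κB targets and the immediate early genes. The clustering therefore cannot show whether positive cells would form 1 cluster by those genes. It gave 14 clusters, and positive cells were found in every one, from 7.14% of cells in cluster 10 to 32.5% in cluster 9. Depth differed between them as well, with a median of 4980 UMIs per cell in cluster 10 and 18449 in cluster 9. Cluster 2 was 10.6% positive at 5885.5 UMIs and cluster 14 8.51% at 4717. Cluster 12 was 26.03% positive at 5972.5 UMIs and cluster 8 16.7% at 16430. The part of depth in these shares was not tested. By level cluster 9 (163 CPM of Ccl7) lay below cluster 12 (285 CPM) and cluster 5 (221 CPM). Cluster 9 was led by Hist1h2ap and the replication genes Chaf1b, Esco2 and Rrm2, and cluster 5, 24.2% positive with the highest Ccl2 of any cluster (702 CPM), by Adm, Ccl2 and Serpina3g. Cluster 4, 27.2% positive, was led by Ly6d, Apoa1, Alb, Ankrd1 and Acta2. One cell with 1 Ccl7 UMI, outside the positive set, held 626 of its 666 Alb and 794 of its 813 Apoa1 UMIs, and without that cell Alb stood at 3.90 and Apoa1 at 1.85 CPM in the cluster. Cluster 13, led by the fibroblast genes Ly6c1, Clec3b and Mfap5, was 15.2% positive with 29 positive cells. Within each of the 14 clusters Ccl2 was higher in the positive than in the Ccl7-zero cells, by 1.84 to 10.4 times.

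**Figure D3:**
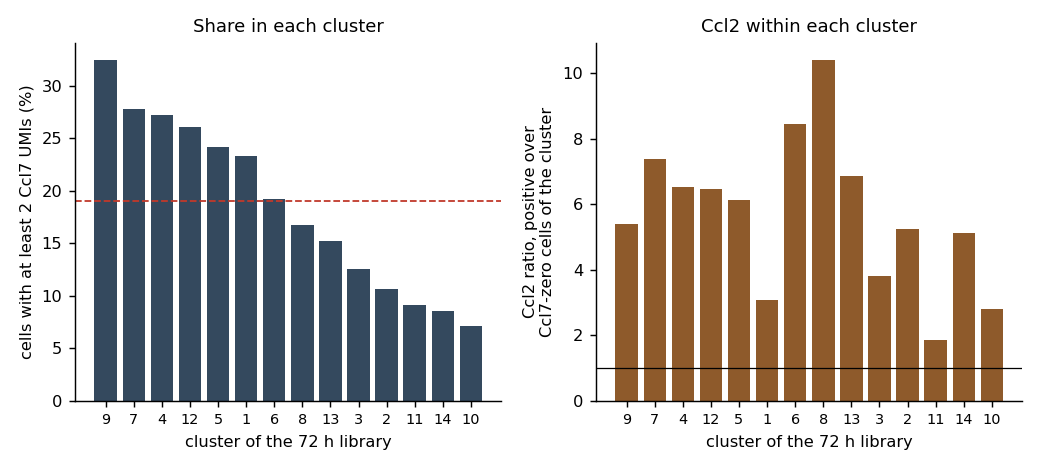
Left, the share of cells with at least 2 Ccl7 UMIs in each of 14 clusters of the 72 h library, with the library's 19.0% as a dashed line. Right, the ratio of Ccl2 in Ccl7-positive over Ccl7-zero cells within the same clusters, which lies above 1 in every cluster.

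Ccl2 was higher in positive cells at every depth. In the 5 groups of equal size by UMIs per cell, whose medians ran from 5093 to 18712 UMIs, positive cells made up 9.51% to 30.6%. The Ccl2 ratio lay between 4.03 and 6.27, Cxcl1 between 2.32 and 3.46, Cxcl10 between 2.05 and 4.11 and Nfkbia between 1.58 and 1.89. Timp1 had a ratio of 1.92 in the shallowest group and 1.13 and 1.16 in the 2 deepest.

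Single cell cycle genes stood among the highest and the lowest ratios. Hist1h2ap, a replication-dependent histone gene with near-identical copies whose counts are uncertain for that reason, stood at 74.1 against 32.4 CPM (2.29, and 1.56 with Ccl7-zero cells weighted to the depth of the positive cells), with a UMI in 8.92% of positive and 5.38% of Ccl7-zero cells. Ccnb1, cyclin B1 of the G2 to M transition, had the lowest ratio of all genes compared at 39.4 against 69.6 CPM (0.57, 0.52 to 0.61, and 0.38 at matched depth), and Cdc20 had 73.4 against 103 CPM (0.71). Over 15 S phase genes, a list added after the values were seen, the summed level was 313 against 243 CPM, but only 1 of them reached 50 CPM, with a ratio of 1.098. Over 15 G2 and M genes, added likewise, the sum was 766 against 961 CPM, and all 7 that reached 50 CPM had intervals below 1 (25.4% of all genes). Cells with UMIs of 3 or more of 10 proliferation genes made up 21.9% of positive and 17.5% of Ccl7-zero cells. Their median depths were 16447 and 12755 UMIs. With cells holding UMIs of 3 or more of 10 proliferation genes left out, Hist1h2ap had a ratio of 0.94 and Ccnb1, which is itself 1 of those 10 genes, 1.01. The lowest ratios after Ccnb1 were Tmem178 (0.58), Ntm (0.60), Smagp (0.66) and Mapt (0.67). Ccnb1, Tmem178 (32.9 against 56.9 CPM), Ntm (31.3 against 52.1 CPM) and Mapt (34.5 against 51.4 CPM) reached 50 CPM only through the Ccl7-zero cells.

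Of the zonation genes of the study, 52 portal and 29 central, the portal ones leaned lower in positive cells. The median ratio was 0.90 over 34 portal genes compared, with 23 intervals below 1 (25.4% of all genes) and 7 above, and 1.01 over 25 central genes, with 9 below and 9 above. Alpl, Gja4, Itgb3 and Tmem178, all portal, had a mean of both sets under 50 CPM. With the limit on that mean, 19 of 30 portal genes had intervals below 1 (24.8% of all genes) and 7 above, with a median of 0.91. With no limit on the level, 35 of 52 lay below 1 and 8 above (9.91% and 8.49% of genes with any UMI). A per-cell score of portal minus central genes, without Ccl2, had a median of -0.17 (quartiles -0.42 and 0.11) in positive and -0.15 (-0.42 and 0.33) in Ccl7-zero cells. With cells in 5 equal groups by that score, from the most central to the most portal, positive cells made up 18.4%, 20.2%, 23.0%, 22.02% and 11.4%, at median depths of 11515, 12301, 12319, 11847 and 9650 UMIs, so the most portal group had the fewest and was the shallowest.

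Cells that met the same rule were present without injury. In the uninjured protocol 2 library 853 of 6850 cells (12.5%, 11.7 to 13.3%) and in the 6-week library 497 of 5454 (9.11%, 8.36 to 9.91%) had at least 2 Ccl7 UMIs. These libraries were shallower, with medians of 6718 and 9893 UMIs against 11344. With every cell thinned to 5000 UMIs, which left out 686, 1201 and 800 cells, the share was 12.05% (11.3 to 12.9%) at 72 h, 10.9% (10.1 to 11.8%) in uninjured and 5.61% (4.96 to 6.31%) in 6-week cells. Over whole libraries, Ccl7 stood at 141 CPM (139 to 144) at 72 h, 150 CPM (146 to 153) in uninjured and 68.5 CPM (66.2 to 70.7) in 6-week cells. By CPM, the Ccl7 RNA of the 72 h library was therefore not above that of the uninjured library. The share of positive cells was higher at 72 h as sequenced, and after thinning its interval overlapped that of the uninjured library. With 1 library per condition no test between conditions was possible.

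In protocol 1 libraries, which hold fibroblasts and smooth muscle cells from a different digestion, 2.02% of uninjured and 1.505% of 6-week cells met the rule. Among cells with smooth muscle markers (at least 2 of Myh11, Pln and Cnn1), 0 of 1207 in the uninjured library, which allows up to 0.249%, and 1 of 1446 in the 6-week library met it, at median depths of 3204 and 3956 UMIs. The 0.249% stands for 3 counts in 1207 cells and is not the exact interval used for other shares. The shares with any Ccl7 UMI there were 2.07% and 1.45%. Of cells with fibroblast markers, 109 of 3959 (2.75%) and 64 of 2338 (2.74%) met the rule, at median depths of 4890 and 5869 UMIs.

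**Figure D4:**
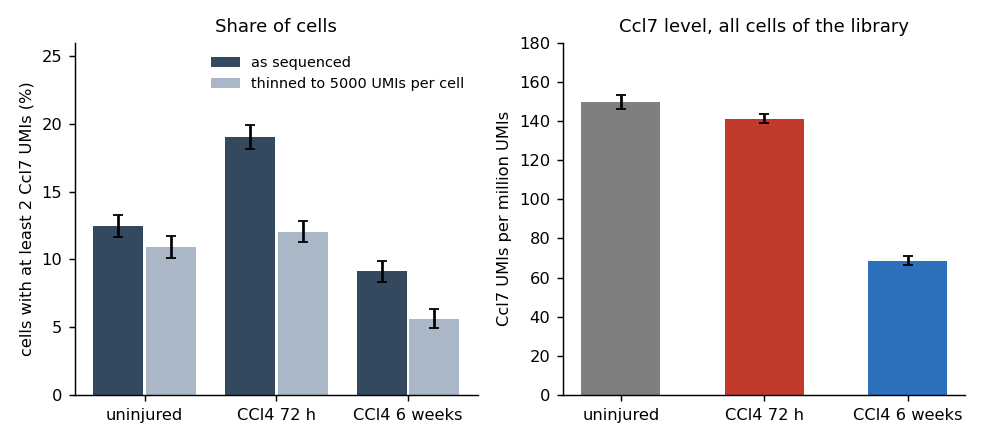
Left, share of cells with at least 2 Ccl7 UMIs in the 3 protocol 2 libraries, as sequenced and after thinning to 5000 UMIs per cell, with exact binomial intervals. Right, Ccl7 CPM over all cells of each library, with exact Poisson intervals: 150 in uninjured, 141 at 72 h and 68.5 after 6 weeks.

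In the uninjured library 9 genes (0.285%) and in the 6-week library 9 genes (0.313%) were at least 2-fold higher in positive cells, and 0 (0%) were lower in either. Of the 5 at 72 h, 4 were among the uninjured genes (80% of one list, 44.4% of the other) and 3 among the 6-week genes (60% and 33.3%). Those were all that reached 50 CPM there, since Hist1h2ap and, at 6 weeks, Cxcl2 (26.6 CPM, ratio 2.78) did not. Of the 4, Cxcl2 reached the limit in both libraries only through the positive cells (52.9 CPM at 72 h and 60.4 CPM in uninjured). In all 3 libraries the limit and the ratio were met by Ccl2, Cxcl1 and Cxcl10. At 1.5-fold, 1.14% and 1.18% were higher and 0.0316% and 0% lower.

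Ccl2 and Timp1 stood at different levels in the 3 libraries. Ccl2 in Ccl7-positive cells stood at 3382 CPM in uninjured, 787 CPM at 72 h and 1142 CPM in 6-week cells, and in Ccl7-zero cells at 886, 159 and 292 CPM. Timp1 in positive cells was highest at 72 h, with 15.9, 228 and 121 CPM in uninjured, 72 h and 6-week cells, and so it was in Ccl7-zero cells, with 5.74, 161 and 41.1 CPM. Few barcodes were shared between libraries: 74 of those of the 72 h library also occurred in the uninjured and 53 in the 6-week library, among them 12 and 10 of the positive cells.

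Which genes went with Ccl7 in the libraries that the choice of cells did not use was tested with edgeR. In each of the uninjured and 6-week protocol 2 libraries the UMIs of Ccl7-positive and of Ccl7-zero cells were summed, giving 4 sums, and edgeR's quasi-likelihood test with the library as a block compared them. Of 12541 genes besides Ccl7, 394 (3.14%) passed an adjusted p under 0.05, 334 higher (2.66%) and 60 lower (0.478%) in positive cells. With 4 sums the fit has 1 residual degree of freedom, so its spread rests mostly on the trend over all genes, and p-values measure the spread between 2 libraries only. DESeq2 called 78 genes higher (0.661%), all of them among these 394, and 0 lower (0%), with 262 genes at an unadjusted p under 0.05.

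The genes at 72 h were called there too. Of the 18 genes at least 1.5-fold higher at 72 h, 17 were higher by edgeR and 16 by DESeq2, and of the 4 that were lower, 0 were lower by edgeR. Among the 18, Cxcl2, Maff, Egr2, Icam1, Bhlhe40 and Hist1h2ap had reached 50 CPM at 72 h only through the positive cells. All of these but Hist1h2ap were called by edgeR. Of the 4 that were lower, Ccnb1, Tmem178 and Ntm had reached 50 CPM at 72 h only through the Ccl7-zero cells. Ccl2 rose 1.98 on the log2 scale (SE 0.03, adjusted p = 1.8e-29), with ratios of 3.82 in uninjured and 3.91 in 6-week cells. With both protocol 1 libraries added, its log2 was 4.09 and the call was lost (edgeR adjusted p = 0.261), as were those of Cxcl10 (adjusted p = 0.198), Nfkbia (adjusted p = 0.0551) and Gadd45b (adjusted p = 0.779). In the 4 sums without the library block edgeR called 0 genes, with 80 at an unadjusted p under 0.05. Cxcl1 rose 1.56 (SE 0.04, adjusted p = 5.5e-23), Cxcl10 1.44 (SE 0.04, adjusted p = 2.7e-22) and Cxcl2 1.84 (SE 0.10, adjusted p = 6.9e-15). Nfkbia rose 0.83 (adjusted p = 2.5e-16), Icam1 0.95 (adjusted p = 7.5e-13), Vcam1 0.63 (adjusted p = 3.0e-12) and Maff 0.94 (adjusted p = 6.3e-11). Timp1 rose 1.58 (adjusted p = 6.2e-16) and Tnfrsf12a 1.02 (adjusted p = 8.1e-09). Hist1h2ap did not pass (adjusted p = 0.80), with 3.68 times the level in uninjured but 0.70 times in 6-week cells.

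Counts by list stand against 2.66% higher and 0.478% lower over all genes by edgeR, and 0.661% higher by DESeq2. Of NF-κB targets, 22 of 23 tested were higher by edgeR (14 by DESeq2) and none lower, with Traf1 absent from those tested and Nfkb1 the one that did not pass. All 11 heat shock genes (0 by DESeq2) and 19 of 21 immediate early genes (5 by DESeq2) were higher as well. Of 9 CXC chemokines tested 5 were higher (4 by DESeq2). Of these, Cxcl9 and Cxcl5 rested on few cells. The 10 highest positive cells held 92.9% of the Cxcl9 UMIs in uninjured and 100% in 6-week cells. For Cxcl5 they held 51.2% and 74.1%. Cxcl12 was lower (log2 -0.09, adjusted p = 0.021), a call that DESeq2 did not make and whose direction turned with the protocol 1 libraries added (log2 0.17). Of 20 matrix genes 8 were higher (2 by DESeq2) and of 23 cytoskeletal genes 9 (3 by DESeq2), with none lower in either. Acta2 was among the 9, and its direction turned with the protocol 1 libraries added. Of 18 genes of HSC identity 9 were lower by edgeR and 0 by DESeq2, among them Vipr1 (log2 -0.19, adjusted p = 0.0021) and Colec11 (log2 -0.08, adjusted p = 0.040). With zero cells drawn to the depth of the positive cells the call of Colec11 was lost (adjusted p = 0.382) and that of Vipr1 was not (adjusted p = 0.036). With the protocol 1 libraries added, both calls were lost. Of 12 cytokines tested 2 were higher, Csf1 (log2 0.64, adjusted p = 2.4e-09) and the alarmin Il33, named after its value was seen, and neither passed with DESeq2.

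Some markers of other cell types were higher in the same test, and their part in the result was not tested. Of 4 smooth muscle markers tested 3 were higher, Acta2 (log2 1.01, adjusted p = 3.2e-12), Tagln and Tpm2, with 1 called by DESeq2. The direction of Acta2 turned with the protocol 1 libraries added. Of 12 hepatocyte markers 2 were higher, Hp, haptoglobin, and Rbp4 (log2 1.34, adjusted p = 0.0023), which had a ratio of 3.62 in 6-week and 1.36 in uninjured cells, while Alb (log2 -0.22, adjusted p = 0.41) and Apoa1 (log2 -0.25, adjusted p = 0.63) did not pass. Cd74, an antigen presentation gene of leucocytes and 1 of 4 tested, was higher (log2 2.09, adjusted p = 0.00032) with a ratio of 9.91 in uninjured and 1.08 in 6-week cells. Wt1, of the mesothelial list, was higher (log2 0.43, adjusted p = 0.022), with a ratio of 0.58 in uninjured and 1.36 in 6-week cells. It was the only 1 of 7 listed mesothelial markers tested. Of the 7, 6 had no UMI in uninjured and 4 none in 6-week positive cells. At 72 h Wt1 was among the leading genes of cluster 1. DESeq2 called none of Rbp4, Cd74 and Wt1. Hp was named after its value was seen.

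**Figure D5:**
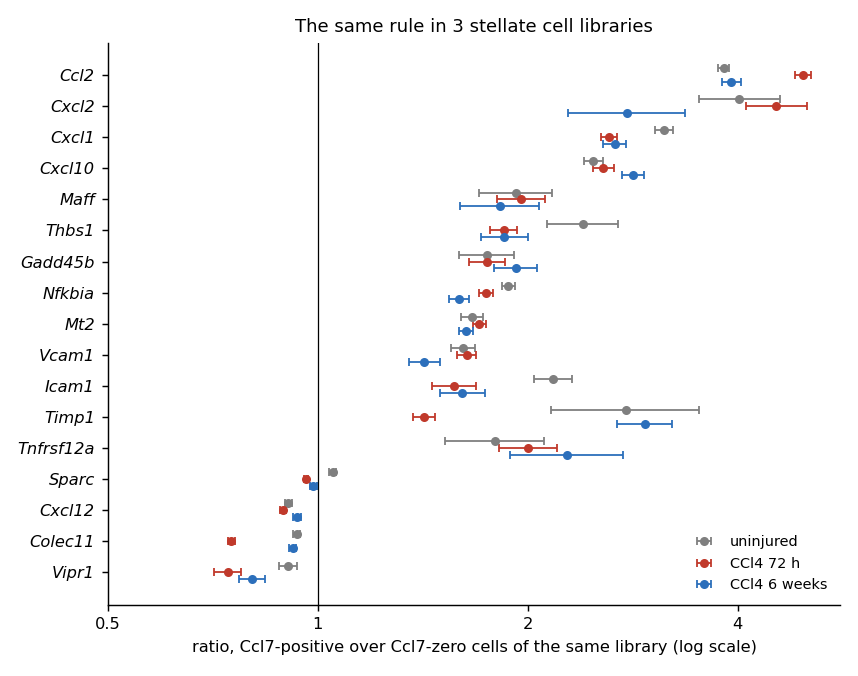
Ratio of Ccl7-positive over Ccl7-zero cells (log x axis) for 17 genes in the uninjured, 72 h and 6-week protocol 2 libraries, with exact conditional intervals. Ccl2 lies at 3.82, 4.95 and 3.91, and Colec11 at 0.93, 0.75 and 0.92.

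Some calls rested on few cells. For 61 of the 334 genes higher by edgeR, most UMIs in positive cells came from the 10 highest cells of each library, and none of these was among the 17 genes shared with 72 h. An example was Saa3 (serum amyloid A3, an acute phase gene, chosen here after its value was seen). It had no UMI in uninjured cells, stood at 2014 against 185 CPM in 6-week cells, and 4920 of its 11195 UMIs in positive cells came from 1 cell. Timp1 was also concentrated, with 66.0% of its UMIs in positive uninjured cells and 59.1% in positive 6-week cells in the 10 highest cells. Without the highest 1% of cells in each set, positive and Ccl7-zero, its ratio fell from 2.76 to 1.64 and from 2.94 to 2.02, while at 72 h it was 1.41. In the 72 h library Saa3 gave 148 UMIs in 13 positive cells.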

How the data were processed

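The authors deposited UMI counts per gene and cell for 5 libraries of 10X Chromium, made per the labels with Cell Ranger 2.1.0 and STAR on mm10. These raw counts were used as deposited. Plate-based cells were not analysed here. Cells with at least 300 genes and at most 30% mitochondrial UMIs were kept. The median was 11344 UMIs per cell at 72 h. UMIs were summed over cell sets, and ratios were given with exact conditional intervals at 95% for genes of at least 50 CPM. The members, the 36 gene lists and the rule for named genes (the markers given, the 12 largest ratios each way and up to 4 leading genes per list) were chosen with earlier results of these data known. Clusters were made with leidenalg 0.10.2 without 485 listed genes, and doublets (427 calls) were kept. edgeR 4.0.16 (quasi-likelihood, TMM, Benjamini-Hochberg) was run with the library as block, since both sums of a library come from the same pooled animals, and DESeq2 1.42.0 was the alternative. The ratio and edgeR steps were tested on simulated data. Other tools were Python 3.11.15, SciPy 1.17.1 and R 4.3.3.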

Additional observations from a re-analysis of the deposited data

Results flagged for a closer look

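Of 110 named genes compared at 72 h, 13 had a ratio of Ccl7-positive over Ccl7-zero cells on one side of 1 at 72 h and on the other in a comparison library, with both intervals clear of 1. Over all 2860 genes this held for 77 (2.69%) against the uninjured and 62 (2.17%) against the 6-week library. The difference was not tested, since each condition is 1 library, and the intervals cover counting error only. Ccnb1 had a ratio of 0.57 at 72 h and 3.36 in uninjured cells, where its level was 6.29 against 1.87 CPM, from 42 UMIs in 8 positive cells, 19 of them in 1 cell. In 6-week cells it had 0.61, on the side of 72 h. Cdc20 had 0.71 at 72 h, 2.11 in uninjured and 0.43 in 6-week cells. Hspa5, an endoplasmic reticulum chaperone, had 0.90 at 72 h, 1.104 in uninjured and 1.08 in 6-week cells. Lower at 72 h and higher in uninjured cells were Actb at 0.81 and 1.03, Tpm2 at 0.90 and 1.18 and the connexin Gja4 at 0.69 and 1.23. So were Sparc at 0.96 and 1.05, the membrane protease Mmp14 at 0.82 and 1.13 and the fibroblast marker Gpx3 at 0.91 and 1.33. Bgn, biglycan, had 0.94 at 72 h and 1.04 in 6-week cells. Il11ra1 went from 1.04 at 72 h to 0.91 in uninjured cells, Phlda3 from 1.05 to 0.91, and Dpt, a fibroblast marker, from 1.14 at 72 h to 0.82 in 6-week cells.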

How the results depend on the processing

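The share of Ccl7-positive cells, 19.0%, was 33.7% at 1 or more UMIs, 14.6% at 3 or more, 15.8% at 2 or more per 10000 UMIs, 12.05% after thinning to 5000 UMIs and 17.8% without cells of 3 or more fibroblast markers. The 5 genes at 2-fold became 8 at 3 or more UMIs (6 higher, 2 lower), 19 with a limit of 10 CPM (17 and 2), 1020 with no limit (624 and 396), where low counts decide, and 22 at 1.5-fold, a setting which like the fibroblast one was chosen after seeing the data. Without cells of 3 or more fibroblast markers 5 genes were called, of which 4 were shared: Cxcl2 fell below 50 CPM (ratio 4.42) and Maff reached 2-fold (2.08). Without dividing cells Hist1h2ap had a ratio of 0.94 and Ccnb1 of 1.01. Hist1h2ap fell under 2-fold with depth-weighted Ccl7-zero cells (1.56) and without doublets (1.91). It did so too against cells of 0 or 1 UMI (1.996) and at 2 per 10000 UMIs (1.79). Ccnb1 became 2-fold lower with depth weighting (0.38), at 3 or more UMIs (0.40) and at 2 per 10000 (0.31). The Ccl2 ratio lay between 4.28 and 5.89 over the alternatives, and Timp1 between 1.21 and 1.54. The 394 genes called with the library block became 0 with no replicate block, when the difference between the libraries enters the spread (80 at an unadjusted p under 0.05). DESeq2 called 78, all among them. With all 4 other libraries edgeR called 77, of which 41 were among the 394. There the calls of Ccl2 (log2 4.09, adjusted p = 0.261), Cxcl10 (2.83, adjusted p = 0.198), Nfkbia (1.10028, adjusted p = 0.0551), Gadd45b (0.31, adjusted p = 0.779), Saa3, Vipr1 and Colec11 were lost, and Acta2 had a log2 of -0.90 and Cxcl12 of 0.17. The cause was not tested. With 1 library left out no test remains, and the log2 ratio of Ccl2 was 1.93 and 1.97. Depth limits genes under 50 CPM, and 1 library per condition limits every comparison of conditions.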
